A study of Mus musculus with 12 samples.

Results

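Strong heating of cartilage progenitor cells was examined here by comparing messenger RNA levels after 10 min at 44 °C with those after 10 min at 37 °C. The comparison took the 4 libraries labelled 44C and the 4 labelled 37C, 8 of the 12 libraries of the series, and all 14424 genes with enough reads to be tested. The description goes beyond the classical heat shock genes, which serve only as a yardstick of size. The cells were ATDC5, a mouse line of wild-type (WT) genotype that the labels call cartilage progenitor cells and that is used as a culture model of chondrocyte formation. Both groups shared the same growth conditions, a medium of 90% high-sugar DMEM with 10% fetal bovine serum kept at 37 °C, and the labels set them apart by the temperature of the exposure. The series design text calls the 4 samples of each group biological replicates, and the labels do not say how the cultures were separated, so p-values measure the spread between these samples. The model is limited to 1 cell line, and the time from the end of heating to RNA extraction is not given in the sources used here.

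Heat unfolds proteins in every compartment of a cell. In the cytosol and nucleus, unfolded protein releases the transcription factor HSF1, which switches on chaperone genes such as those of HSP70 and HSP27. The endoplasmic reticulum (ER), where collagens and other secreted and membrane proteins fold, is watched by a separate system, the unfolded protein response, in which IRE1 with XBP1, ATF6, and PERK with ATF4 raise ER chaperones, degradation factors and amino acid supply. Cartilage cells are known for a heavy load of secreted matrix, for a signalling network of growth factors, hedgehog and integrins, and for responses to interleukins and interferons that change matrix turnover.

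Total counts lay between 16469745 and 19506705 per library at 37 °C and between 16606597 and 17612087 at 44 °C. Of the tested genes 1975 were called at an adjusted p under 0.05 (13.7% of those tested, 949 or 6.58% higher and 1026 or 7.11% lower at 44 °C), by the quasi-likelihood test of edgeR with Benjamini-Hochberg adjustment over all tested genes. The number moved with the libraries: omitting 37 °C replicate 1, 2 or 4 or 44 °C replicate 2 or 4 gave between 979 and 1156, and omitting 44 °C replicate 1 gave 3355. For that reason the text rests on held calls, which are genes called from all libraries and also, with the same sign, in each of 8 fits that left out 1 of the 8 libraries. There were 808 held calls (5.6% of those tested), 317 higher (2.2%) and 491 lower (3.4%). Held genes named beyond the rule given with the processing were picked after their values were seen. The groups did not overlap in 2561 of all genes tested (17.8%), and in 315 of the higher and 489 of the lower held calls. A remark below that the groups did not overlap in a held gene is thus nearly fixed by that choice. Replicates also departed from their group mean along a shared direction, the leading principal component of those departures, with 29.8% of their variance. Its scores at 44 °C were 1.43, −1.06, 0.56 and −0.93 for replicates 1 to 4, and at 37 °C they were 1.02, −0.21, −0.79 and −0.01. For many of the gene groups below the level in the libraries is given, and the part of this direction in them was not tested.

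The labelled cell type was checked against its markers. Of 28 genes of cartilage identity and matrix in the table, 14 had enough reads to be tested, 6 had no read in any of the 8 libraries and 12 had at most 10 reads in each. The early mesenchymal regulator genes Prrx1 (3715 to 7278 reads) and Sox9 (578 to 1348 reads) were expressed, while the differentiated cartilage genes Col2a1 (15 to 30 reads) and Acan (14 to 44 reads) were near the limit of detection and Col9a1, Hapln1 and Matn1 had no reads. The libraries thus carried progenitor regulators and little transcript of differentiated cartilage matrix.

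Held decreases were larger than held increases. The median size of a held change was 0.47 on the log2 scale among lower genes and 0.36 among higher genes, and 50 lower against 9 higher genes changed at least 2-fold. Summed over genes, held decreases amounted to −19932 CPM (read counts scaled to library size) and held increases to 8570 CPM. As CPM are relative to the library total, these sums cover held genes only and do not measure a change in total transcript. Of all genes tested, 7207 had a log2 fold change above 0 and 7217 below. The yardstick was Hspb1, the gene of the small heat shock protein HSP27, at 78.2, 72.3, 60.2 and 74.5 CPM at 37 °C and 252, 224, 198 and 211 CPM at 44 °C (log2 fold change 1.63 ± 0.092 (SE), adjusted p = 2.94e-07). The HSP70 gene Hspa1b had 8.47, 9.1, 8.79 and 8.36 CPM at 37 °C and 20.3, 17.6, 19.3 and 18.1 CPM at 44 °C, and its near-identical neighbour Hspa1a is uncertain because counting may have split their reads. For both Hspb1 and Hspa1b the 44 °C libraries lay above all 37 °C libraries. The plot of all genes shows these beside the groups described next.

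**Figure D1:**
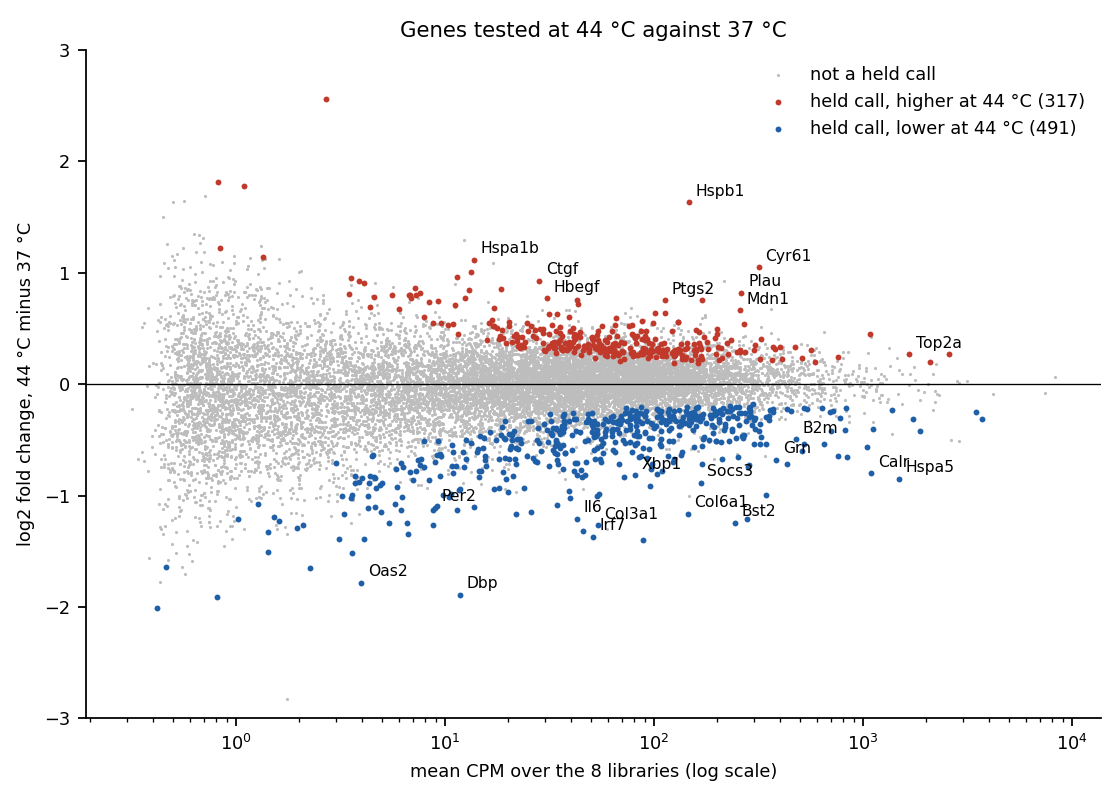
Each point is 1 of 14424 tested genes, placed by its mean CPM over the 8 libraries (x axis, log scale) and its log2 fold change, 44 °C minus 37 °C (y axis). Red points are the 317 held calls that were higher, blue points the 491 that were lower, and of these 9 and 50 changed at least 2-fold.

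Genes of protein folding in the ER fell together at 44 °C, in every heated library and to a like extent. Of 22 ER chaperone genes tested, 13 were called lower and 12 of these calls held, while none was called higher. The median of the list was −0.29 on the log2 scale, beside −0.000335 for all genes tested. The mean level of the list, taken as the mean log2(CPM + 0.5) of its members relative to the 37 °C mean, was between −0.42 and −0.36 in the 44 °C libraries and between −0.02 and 0.02 in the 37 °C libraries.

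Hspa5 encodes BiP, the HSP70 of the ER that binds nascent chains and holds the stress sensors silent. It had 1725, 1959, 2031 and 1898 CPM at 37 °C and 974, 1064, 1088 and 1102 CPM at 44 °C, a fold of 0.555 (44 °C over 37 °C). Calr encodes calreticulin, the lectin chaperone of glycoproteins, and had 1335, 1409, 1448 and 1361 CPM at 37 °C and 763, 756, 824 and 847 CPM at 44 °C. In both genes the highest heated library lay below the lowest control. Hsp90b1, the ER HSP90 gene, had 952, 911, 884 and 945 CPM at 37 °C and 598, 550.3, 645 and 562 CPM at 44 °C, also without overlap.

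Other chaperones and partners of BiP fell too. Sdf2l1, which encodes a BiP cofactor that keeps clients from aggregating, had 59.7, 55.4, 57.8 and 59.03 CPM at 37 °C and 38.9, 28.8, 29.7 and 32.6 CPM at 44 °C (log2 fold change −0.84 ± 0.097 (SE), adjusted p = 0.000151). Manf, which encodes a secreted ER stress protein that stabilises BiP with its clients, had a log2 fold change of −0.72. Fkbp14 (−0.76) and Fkbp2 (−0.52), prolyl isomerase genes, Dnajb9 (−0.52), a BiP co-chaperone gene, and Creld2 (−0.30) fell as well. Hspa13 (−0.21) and Ppib (−0.25), which encodes the collagen-modifying cyclophilin B, had the smallest held decreases of the list. Canx, which encodes calnexin, the membrane-bound relative of calreticulin, had 598, 668, 698 and 646 CPM at 37 °C and 533, 637, 597 and 657 CPM at 44 °C and was not called (log2 fold change −0.11 ± 0.067 (SE), adjusted p = 0.294), and the groups overlapped.

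The promoters of several of these genes carry the ER stress response element, to which ATF6 and XBP1 bind with NF-Y. Its letters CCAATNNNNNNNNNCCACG were searched on both strands in the 250 bases before each start site, in RefSeq promoters on GRCm38.p6. They occurred in 17 of 10115 tested genes with a promoter in that table (0.168%), and in 6 of 18 ER chaperone genes (33.3%). Capitals mark the element, which on the minus strand of a gene reads from CGTGG to ATTGG. The sequences are shown 5′ to 3′ on the strand of the gene to set the members that fell beside 2 that were not called.
Hspa5, chr2:34772010-34772058, plus strand: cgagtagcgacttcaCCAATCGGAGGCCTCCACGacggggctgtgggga
Calr, chr8:84847060-84847108, minus strand: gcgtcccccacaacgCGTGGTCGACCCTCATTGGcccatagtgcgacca
Hsp90b1, chr10:86705518-86705671, minus strand, with 2 elements: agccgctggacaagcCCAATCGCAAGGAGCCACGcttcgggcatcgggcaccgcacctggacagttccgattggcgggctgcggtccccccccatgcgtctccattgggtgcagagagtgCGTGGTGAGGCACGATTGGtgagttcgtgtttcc
Pdia6, chr12:17266476-17266524, plus strand: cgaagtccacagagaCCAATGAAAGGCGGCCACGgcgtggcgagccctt
Creld2, chr15:88819505-88819553, plus strand: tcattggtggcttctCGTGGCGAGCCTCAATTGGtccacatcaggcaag
Canx, chr11:50325785-50325833, minus strand: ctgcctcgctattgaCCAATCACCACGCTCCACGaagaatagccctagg
Dnajc3, chr14:118937812-118937860, plus strand: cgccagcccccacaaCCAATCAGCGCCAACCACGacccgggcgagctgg

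Of the 17 genes with the element, 5 were called lower and all 5 calls held (Hspa5, Calr, Pdia6, Hsp90b1 and Creld2), and none was called higher, a share of 29.4% called beside 13.7% of all genes tested. The other 12 included Canx (−0.11), Dnajc3 (−0.17), which encodes an inhibitor of the kinase PERK, and Syvn1 (−0.14), which encodes the ubiquitin ligase HRD1. Genes without the letters in that window fell too, among them Sdf2l1, Manf and Xbp1, and no match says only that these letters were not found there. Here and for the elements below, the 13.7% of all genes tested also covers genes without a promoter in that table.

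Disulfide isomerase genes fell in part. Of 19 tested, 6 were called lower (5 held) and 1 higher (not held), with a median of −0.25. The held ones were Pdia4 (−0.72), Pdia6 (−0.72), Pdia3 (−0.47), Erp29 (−0.33) and P4hb (−0.31), the last being also the beta subunit of collagen prolyl 4-hydroxylase. Pdia6 had 564, 523, 509.9 and 546 CPM at 37 °C and 354, 295, 339 and 315 CPM at 44 °C and Pdia4 363, 353, 348 and 348 CPM at 37 °C and 229, 198, 230.2 and 198 CPM at 44 °C, and in neither did the groups overlap.

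The entry and glycosylation machinery of the ER mostly did not pass the test. Of 38 genes for translocation, signal peptide cleavage and N-glycosylation, 4 were called lower, of which 3 held, and 2 higher, of which none held, with a median of −0.03. The held ones were the oligosaccharyltransferase genes Magt1 (−0.30) and Rpn2 (−0.22) and the translocon gene Ssr4 (−0.27). Vesicle coat genes were also mixed, with held calls among 37 genes for Sec23b, a COPII coat gene (0.26), and Tmed10, a cargo receptor gene (−0.25). Called members were 15.8% of the translocation and glycosylation list and 13.5% of the vesicle coat list, near the 13.7% of all genes tested.

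Among 27 genes of ER stress sensing and ER-associated degradation, 5 were called lower, 4 of them held, and none was called higher (median −0.07). Xbp1, the transcription factor gene of the IRE1 branch, had 102, 105, 104 and 100.2 CPM at 37 °C and 65, 49.4, 69.5 and 49.3 CPM at 44 °C (log2 fold change −0.82 ± 0.1 (SE), adjusted p = 0.000277). Each heated library lay under each control. Without 44 °C replicate 1 the list had 8 called lower. Herpud1 (−0.36), Os9 (−0.40) and Sel1l (−0.29), which belong to the machinery that extracts misfolded proteins, fell less. These counts are of total transcript, and spliced Xbp1 was not measured apart.

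Genes of the ATF4 branch, which supplies amino acids under stress, went in both directions. Of 27 tested, 3 were called higher (1 held) and 5 lower (4 held), with a median of 0.06. The amino acid transporter genes Slc7a3 (−1.02) and Slc7a11 (−0.83), the transcription factor gene Cebpb (−0.48) and the folate enzyme gene Aldh1l2 (−0.47) fell. The folate enzyme gene Mthfd2 rose, from 132 ± 10.4 to 184 ± 23.9 CPM (mean ± SD, n = 4 each).

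**Figure D2:**
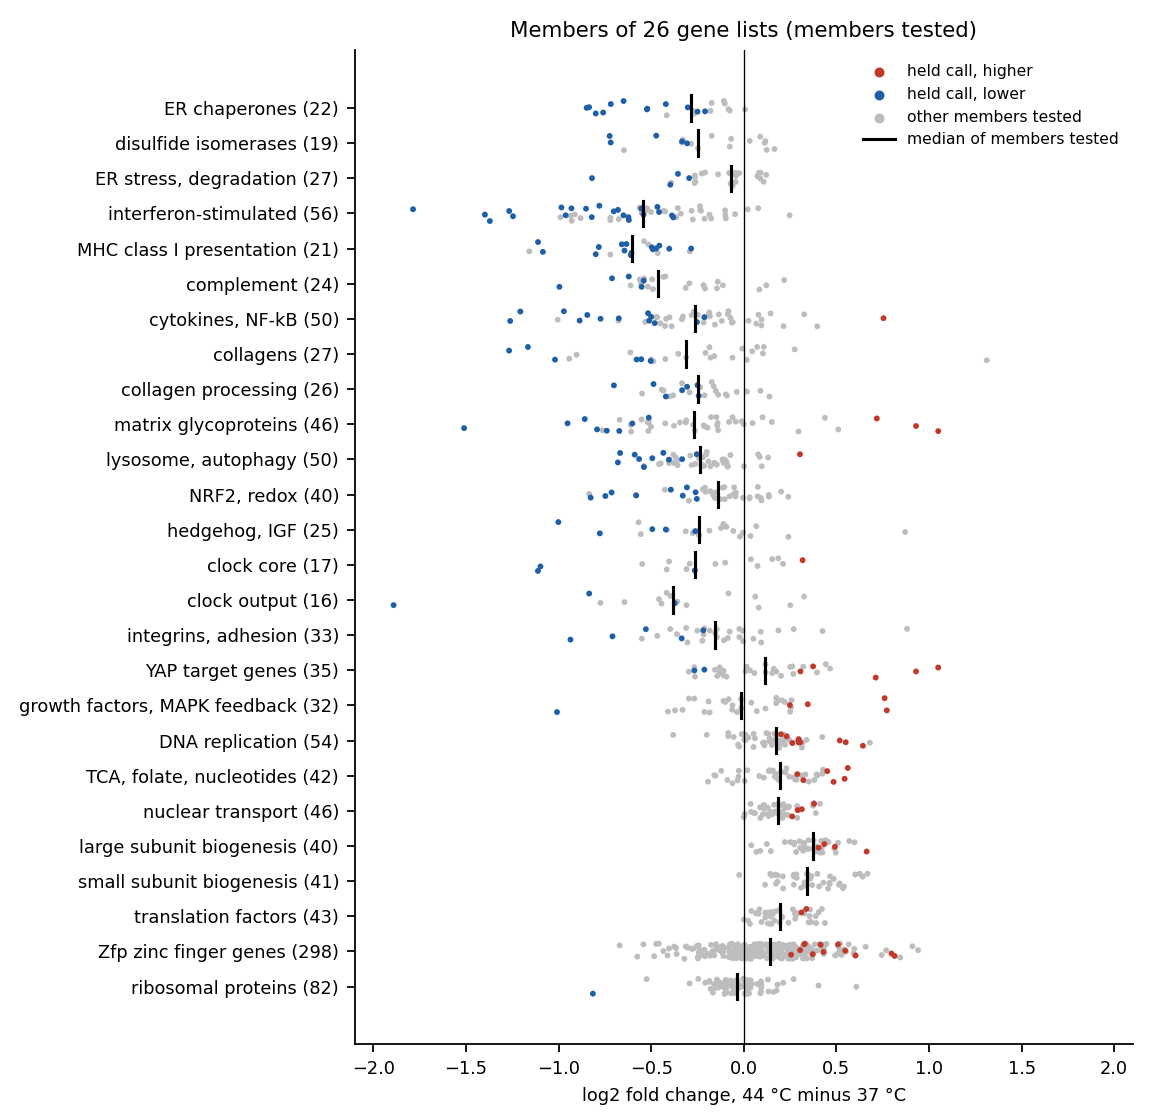
Each row is a gene list with the number of members tested in brackets, each point a member at its log2 fold change (44 °C minus 37 °C), and each black bar the median. Held calls are blue where lower and red where higher. ER chaperone, interferon-stimulated and MHC class I members lie mostly left of 0, and ribosome assembly members mostly right of it with few held calls.

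Among genes of secreted cargo that these chaperones serve, the collagens had held decreases. Of 27 collagen genes, 10 were called lower (6 held), with a median of −0.31, and 6 were called lower without 37 °C replicate 1 or 44 °C replicate 4. Col6a1 encodes a chain of the beaded collagen VI that surrounds chondrocytes and had 248, 193, 163 and 198 CPM at 37 °C and 126, 68.6, 95.3 and 67.6 CPM at 44 °C (log2 fold change −1.17 ± 0.19 (SE), adjusted p = 0.00184). Its partner gene Col6a2 had 62.9, 52.5, 47.3 and 49.5 CPM at 37 °C and 35.7, 20.2, 24.8 and 24.01 CPM at 44 °C. In both, every heated library was under every control, with 44 °C replicate 1 nearest to them.

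Fibrillar collagen genes differed among themselves. Col3a1, a fibrillar collagen of loose connective tissue, had 87.9, 76.3, 66.96 and 72.2 CPM at 37 °C and 42.9, 23.7, 35.2 and 24.2 CPM at 44 °C, and Col5a2 had a log2 fold change of −0.50. Col8a1 (−0.55) and Col16a1 (−0.58) fell, and Col1a1 was not called (0.27). Col20a1, picked after its values were seen, was the 1 collagen gene called higher (1.31, from 0.392 ± 0.252 to 0.996 ± 0.159 CPM), and that call did not hold. The mean level of the collagen list was between −0.45 and −0.05 in the 44 °C libraries and between −0.09 and 0.12 in the 37 °C libraries, so 44 °C replicate 1 overlapped the controls for the list although not for the held genes.

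Among 26 collagen-modifying genes, 10 were called lower, of which 7 held, and none higher (median −0.25). Their mean level was between −0.43 and −0.08 in the 44 °C libraries and between −0.09 and 0.12 in the 37 °C libraries, where 44 °C replicate 1 overlapped the controls. The held ones were Serpinh1, the gene of the collagen chaperone HSP47 (−0.42), Pcolce (−0.49) and Pcolce2 (−0.24), enhancers of procollagen cleavage, Plod3, a lysyl hydroxylase gene (−0.33), P4ha3 (−0.70), P4hb and Ppib. HSP47 is induced by heat in many cells through HSF1. Here Serpinh1 had 352, 364, 372 and 368 CPM at 37 °C and 280.1, 262, 269.9 and 275 CPM at 44 °C, with every heated library under the controls.

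Matrix glycoproteins and proteoglycans held 8 decreases and 3 increases among 46 tested (median −0.27). The decreases were in Vcan, the versican gene of the young cartilage matrix (−0.60), Thbs2 (−0.74) and Thbs3 (−0.51) of the thrombospondins, Dcn, decorin (−0.79), Agrn, agrin (−0.67), Prg4, lubricin (−0.86), and the CCN family genes Nov (−0.95) and Wisp2 (−1.51). The increases were in Cyr61, Ctgf and Tnc, described below. Without 37 °C replicate 1 the number called lower went from 17 to 8. Vcan had 642, 609, 595 and 611 CPM at 37 °C and 419.5, 392.2, 414 and 393 CPM at 44 °C, without overlap.

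Glycosaminoglycan synthesis held 4 decreases of 39 and no increase (median −0.13), in the chondroitin enzymes Chst12 (−0.68), Chpf2 (−0.55) and Dse (−0.36) and the sulfate transporter Slc26a2 (−0.40). Among 43 matrix protease and inhibitor genes, 3 held increases and 4 held decreases. Plau, the urokinase gene, had 226, 179, 167 and 184 CPM at 37 °C and 365, 298, 361 and 311 CPM at 44 °C (log2 fold change 0.82 ± 0.13 (SE), adjusted p = 0.00175), and the stromelysin genes Mmp3 (0.75) and Mmp10 (0.53) rose. The inhibitor gene Timp2 (−0.41), Htra1, a serine protease gene (−0.49), Adam15 (−0.34) and Adamtsl1 (−0.74) fell. Mmp13, the collagenase of hypertrophic cartilage, was not called (0.68).

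Interferon-stimulated genes formed the list with the most held decreases. Of 56 tested, 34 were called lower and none higher, and 22 held, with a median of −0.54. The number called lower went from 22 without 37 °C replicate 1 to 40 without 44 °C replicate 1. The mean level of the list was between −0.87 and −0.23 in the 44 °C libraries and between −0.10 and 0.17 in the 37 °C libraries, in the order −0.23, −0.87, −0.40 and −0.77 for 44 °C replicates 1 to 4. The heated libraries thus spread widely while all lay under the controls, and the part of the within-group direction in that spread was not tested.

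Oas2, a gene of the oligoadenylate synthetases that sense viral RNA, had 7.82, 5.1, 6.02 and 5.73 CPM at 37 °C and 2.69, 1.34, 1.7 and 1.43 CPM at 44 °C (log2 fold change −1.79 ± 0.23 (SE), adjusted p = 0.000366). Irf7, the regulator that amplifies interferon production, had 89.6, 67.4, 61.6 and 74.9 CPM at 37 °C and 41.99, 18.7, 32.4 and 20.5 CPM at 44 °C, and Bst2, the gene of the virus-tethering protein tetherin, 354, 347, 328 and 343 CPM at 37 °C and 169, 127, 135 and 148 CPM at 44 °C. The groups did not overlap in any of the 3, which the rule that named them required. In Irf7 44 °C replicates 2 and 4 were lowest. Ly6e, which encodes a surface protein that limits virus entry, had 1122, 1018, 957 and 996 CPM at 37 °C and 741, 573, 686 and 609.7 CPM at 44 °C. The secreted glycoprotein gene Lgals3bp had 147, 127, 119 and 122 CPM at 37 °C and 62.9, 39.9, 51.9 and 40.8 CPM at 44 °C, with no overlap in either gene.

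The remaining held members covered several effector families. Guanylate-binding protein genes Gbp5 (−1.27), Gbp3 (−0.96), Gbp2 (−0.70) and Gbp4 (−0.68) attack intracellular pathogens. The RNA sensor genes Ddx58 (−0.47), which encodes RIG-I, and Dhx58 (−0.93) fell, as did Isg15, the ubiquitin-like modifier gene (−0.85). Parp9 (−0.78), Parp12 (−0.38), Parp14 (−0.62) and Dtx3l (−0.62) belong to ADP-ribosylation and ubiquitin complexes. The last 6 were Oas1a (−0.98), Rtp4 (−0.82), Irgm1 (−0.55), Ifi27 (−0.54), Ifi35 (−0.46) and Shisa5 (−0.39). Reads of Oas1a may be shared with its close relatives, so its value is uncertain.

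Promoters of this list often carried the interferon-stimulated response element, the site of STAT and IRF factors. The letters GAAANNGAAA were searched on both strands of the same windows and can overlap one another. They occurred in 319 of 10115 genes (3.15%) and in 18 of 40 interferon-stimulated genes with a promoter (45%). Capitals mark the matches. The 5 genes shown were picked from held decreases, 4 from this list and B2m from the class I list described next.
Bst2, chr8:71537572-71537617, minus strand: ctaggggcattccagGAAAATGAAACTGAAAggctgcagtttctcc
B2m, chr2:122147533-122147572, plus strand: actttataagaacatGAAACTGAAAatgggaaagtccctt
Isg15, chr4:156200860-156200911, minus strand: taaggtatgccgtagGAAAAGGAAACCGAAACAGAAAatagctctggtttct
Oas1a, chr5:120907526-120907560, minus strand: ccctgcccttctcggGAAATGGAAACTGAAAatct
Gbp3, chr3:142559984-142560029, plus strand, on the minus strand of the gene: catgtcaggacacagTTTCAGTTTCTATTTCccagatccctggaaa

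Over all 319 genes with this element, 45 were called lower and 23 higher, 21.3% together beside 13.7% of all genes tested. Of held calls with a promoter, 28 of 367 lower genes (7.63%) and 5 of 244 higher genes (2.05%) had the element. The heat shock element GAANNTTCNNGAA was in 46 of 10115 promoters (0.455%), of which 4 were called higher and 2 lower. The AP-1 letters TGANTCA were in 586, of which 35 were called higher and 79 lower (19.5%).

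Genes of antigen presentation by MHC class I fell almost throughout the list. Of 21 tested, 19 were called lower and 15 held, none was called higher, and the median was −0.61. The mean level was between −0.82 and −0.38 in the 44 °C libraries and between −0.08 and 0.09 in the 37 °C libraries. The members follow the path of a peptide. The immunoproteasome genes Psmb8 (−0.78), Psmb9 (−1.11) and Psmb10 (−0.46) and the PA28 genes Psme1 (−0.28) and Psme2 (−0.61) produce it, Tap2 (−0.66) carries it into the ER and Erap1 (−0.40) trims it.

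Loading uses Tapbp, tapasin (−0.63), with calreticulin and Pdia3, both lower as given above. B2m, the light chain gene of all class I molecules, had 626, 549, 509.8 and 551 CPM at 37 °C and 419.9, 329, 428 and 407 CPM at 44 °C (log2 fold change −0.50 ± 0.085 (SE), adjusted p = 0.00222). The heavy chain genes H2-K1 (158, 139, 133 and 139 CPM at 37 °C and 109, 81.6, 93.9 and 80.2 CPM at 44 °C) and H2-D1 (−0.49) fell, as did H2-T23 (−1.08), a nonclassical class I gene. Heavy chain genes resemble one another, so the division of reads among them is uncertain. Nlrc5, the transactivator gene of this pathway, fell too (−0.61), from 13.1 ± 1.25 to 8.62 ± 1.64 CPM.

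The decrease within the proteasome was limited to those 5 genes among held calls. Of 46 proteasome genes tested, 4 were called higher, of which none held, and 6 lower, of which 5 held, and the median of the list was 0.07. The standard catalytic subunits were thus not among the held decreases. Whether the immunoproteasome genes differ from the rest of the proteasome in response was not tested.

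Inflammatory mediators also held decreases. Of 50 cytokine, chemokine and NF-kB genes, 19 were called lower (13 held) and 1 higher, which held (median −0.26). Il6, the interleukin 6 gene, had 69.2, 55.3, 51.6 and 63.03 CPM at 37 °C and 30.8, 18.2, 31.3 and 23.4 CPM at 44 °C (log2 fold change −1.21 ± 0.17 (SE), adjusted p = 0.000643). Socs3, the feedback inhibitor gene that interleukin 6 induces through STAT3, had 227, 225, 202 and 213 CPM at 37 °C and 139.6, 109, 115 and 105 CPM at 44 °C. Both were without overlap.

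Further along this path the receptor genes Il6ra (−0.52) and Il6st (−0.21), Stat3 (−0.25), Jak2 (−0.43), Cebpb (−0.48) and Cebpd (−0.65) fell. Of 13 interleukin 6 pathway genes put together after the values were seen, 8 were called lower, all held, and none was called higher. That count is in part fixed by the choice of genes. Of all genes tested, 7.11% were called lower. The chemokine genes Ccl7 (−1.26), Ccl2 (−0.97), Cxcl5 (−0.77) and Cxcl1 (−0.51), the receptor gene Tlr2 (−0.67), Il15 (−0.84), Nfkbiz (−0.50) and Socs1 (−0.48) completed the held decreases. The exception was Ptgs2, the gene of the prostaglandin enzyme COX-2, at 87.9, 84.5, 82.8 and 80.6 CPM at 37 °C and 131, 144, 132 and 159 CPM at 44 °C, where every heated library lay above the controls.

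Complement and acute phase genes held 5 decreases of 24 with no increase (median −0.46), among them Serping1 (−0.71), C3 (−0.62), C1ra (−0.55) and Cp, the ceruloplasmin gene (−0.54). C3, the central complement protein gene, had 47.4, 41.9, 34.7 and 39.2 CPM at 37 °C and 31.2, 24.05, 28.5 and 22.5 CPM at 44 °C. Mpeg1 and Fyb, genes typical of blood cells, were among the largest decreases, at 7.16, 5.1, 4.66 and 4.42 CPM at 37 °C and 2.39, 1.64, 2.17 and 1.26 CPM at 44 °C and 7.82, 4.49, 4.6 and 6.69 CPM at 37 °C and 3.74, 1.52, 2.46 and 1.31 CPM at 44 °C. Of 24 macrophage and blood cell markers, 7 had enough reads to be tested and 7 had no read in the 8 libraries, including Ptprc, Adgre1, Tyrobp and Laptm5. The summed level of the 24 was between 75.1 and 104 CPM at 37 °C and between 62.2 and 87.5 CPM at 44 °C, with overlap. For the 7 tested markers the mean level was between −0.63 and −0.19 in the 44 °C libraries and between −0.15 and 0.17 in the 37 °C libraries, without overlap. Of these 7 only Mpeg1 and Fyb were called, and 2 others had a log2 fold change above 0 (median of the 7, −0.24). Lcp1, for one, had 483, 307, 334 and 331 reads at 37 °C and 504, 361, 549 and 413 reads at 44 °C. In bulk samples fewer cells of a type and less RNA per cell cannot be told apart.

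Of 50 lysosomal and autophagy genes, 20 were called lower, of which 10 held, and 1 held as higher (median −0.23). As a list their mean level was between −0.38 and −0.08 in the 44 °C libraries and between −0.10 and 0.13 in the 37 °C libraries, where 44 °C replicate 1 overlapped the controls. The count went from 10 without 37 °C replicate 1 or 44 °C replicate 2 to 29 without 44 °C replicate 1. Ctsd, the cathepsin D gene, had 399.7, 342, 319 and 354 CPM at 37 °C and 295, 219.5, 248 and 212 CPM at 44 °C, and Grn, the progranulin gene, 535, 466, 403 and 485 CPM at 37 °C and 366, 249, 317 and 247 CPM at 44 °C. In both genes the groups were apart. Lipa (−0.67), Glb1 (−0.59) and Gla (−0.49) encode lipid and sugar hydrolases, Npc2 (−0.57) a cholesterol carrier, Psap (−0.40) the saposin precursor and Lgmn (−0.33) a protease. The autophagy genes Gabarapl1 (−0.43) and Sqstm1 (−0.25) fell, and Ids, a sulfatase gene, rose (0.30).

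Of 40 genes of the oxidative stress response under the transcription factor NRF2, 11 were called lower, of which 9 held, and none higher (median −0.14). Hmox1, the heme oxygenase gene that many stresses induce, had 107, 79.1, 69.02 and 81.8 CPM at 37 °C and 58.98, 44.1, 57.9 and 44.9 CPM at 44 °C (log2 fold change −0.71 ± 0.16 (SE), adjusted p = 0.00964), with all heated libraries lower. Nfe2l2, the gene of NRF2 itself (−0.31), its inhibitor gene Keap1 (−0.26), Nqo1 (−0.58), Srxn1 (−0.33), G6pdx (−0.39), Sod3 (−0.75), Slc7a11 and Sqstm1 fell. The mean level of the list was between −0.22 and −0.14 in the 44 °C libraries and between −0.02 and 0.03 in the 37 °C libraries.

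Metal-handling genes shared members with it. Mt2, a metallothionein gene that heat and metals induce in many cells, had 80.7, 62.02, 52.7 and 66.5 CPM at 37 °C and 30.5, 19.1, 27.1 and 28.1 CPM at 44 °C. Mt1, its close relative, had a log2 fold change of −0.51, and that call did not hold. Steap3, a ferrireductase gene, fell (−0.52). Tfrc, the transferrin receptor gene, was called higher (149 ± 36.8 to 283 ± 96.1 CPM) and the ferritin heavy chain gene Fth1 lower (−0.18), but neither call held, and both were picked after their values were seen.

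**Figure D3:**
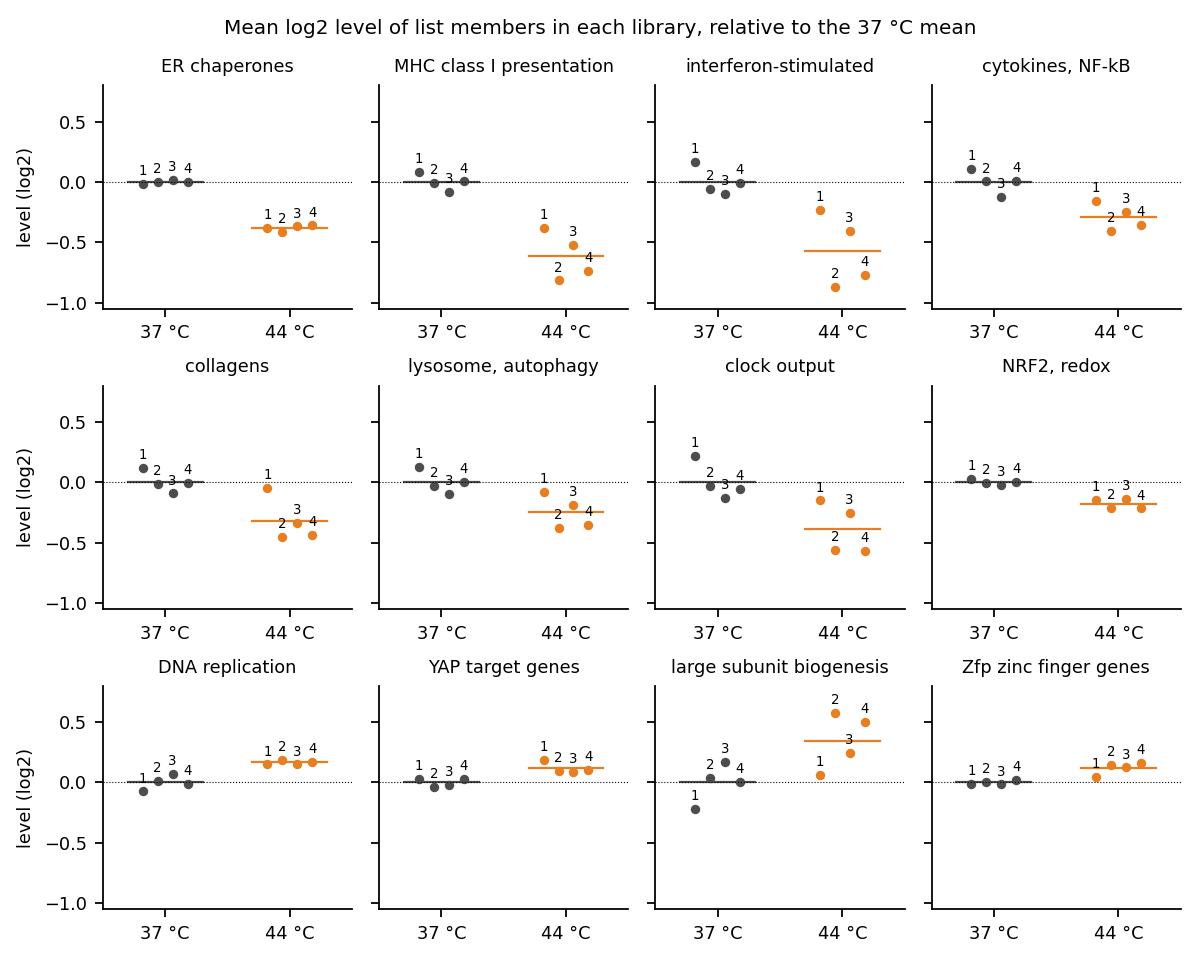
Each panel shows the mean log2(CPM + 0.5) of the tested members of a list in each library, relative to the mean of the 37 °C libraries (y axis), with the replicate number above each point and a bar at the group mean. The ER chaperone list lies between −0.42 and −0.36 in the 4 heated libraries, while the interferon-stimulated and large subunit biogenesis lists spread widely among them.

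Secreted growth regulators went both ways: Cyr61, Ctgf and the growth factor gene Hbegf rose, while Nov and Wisp2, given above, and Hgf fell. Cyr61 and Ctgf encode matricellular CCN proteins and are classical targets of YAP and of serum response factor. Cyr61 had 214, 198, 215 and 196 CPM at 37 °C and 463, 421, 394 and 425 CPM at 44 °C, a fold of 2.07, and Ctgf had 19.97, 18.7, 18.2 and 20.6 CPM at 37 °C and 36.8, 34.98, 35.7 and 40.02 CPM at 44 °C, a fold of 1.91. Each heated library was above each control in both. Of 35 genes listed as YAP targets and partners, 5 held as higher and 2 as lower, with a median of 0.12.

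The other held YAP list members were Ankrd1 (0.71), Amotl2 (0.37) and Wwc2 (0.31) as higher, of which Amotl2 and Wwc2 encode restraints on YAP, and Myof (−0.21) and Arhgef17 (−0.27) as lower. Ankrd1, a muscle stress gene, had 8.12, 6.68, 9.73 and 9.31 CPM at 37 °C and 13.1, 13.2, 13.1 and 16.01 CPM at 44 °C. Many other listed targets were not called, such as Axl (−0.09) and Thbs1 (−0.14).

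In the epidermal growth factor branch, Hbegf, a ligand gene of the receptor, had 18.9, 23.4, 25.1 and 23.04 CPM at 37 °C and 36.5, 42.3, 37.6 and 37.9 CPM at 44 °C (log2 fold change 0.77 ± 0.098 (SE), adjusted p = 0.000307). The groups were apart by more than the spread of either. Feedback inhibitor genes of the receptor and of ERK rose beside it: Errfi1 (0.25), Spry4 (0.35) and Dusp5 (0.76), the last at 29.5, 33.1, 36.8 and 27.1 CPM at 37 °C and 51.8, 59.6, 51.99 and 50.8 CPM at 44 °C. Epha2, an ephrin receptor gene, rose too (0.36). Of 32 genes in this list, 4 were called higher, all held, and 4 lower, of which Hgf, the hepatocyte growth factor gene, held (−1.01). The median of the list was −0.01.

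Tnc, the tenascin C gene of remodelling matrix, had 37.4, 32.3, 29.4 and 31.2 CPM at 37 °C and 62.1, 51.9, 52.1 and 48.8 CPM at 44 °C, and every heated library exceeded the controls. Immediate early genes were mixed: of 36, 1 held as higher and 3 as lower. Srf, the serum response factor gene, rose (0.30), and Junb (−0.29), Id1 (−0.35) and Id3 (−0.56) fell. Jun (−0.01), Myc (−0.00) and Egr2 (−0.03) were not called.

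Cytoskeletal genes also split. Of 39 actin and SRF-linked genes, 4 held as higher and 3 as lower. Actb, the beta-actin gene, had 1825, 1987, 2026 and 1928 CPM at 37 °C and 2236, 2176, 2245 and 2244 CPM at 44 °C, and the filamin gene Flnc (0.32), Fhl2 (0.47) and Srf rose. Acta2, the smooth muscle actin gene, had 109, 124, 125 and 127 CPM at 37 °C and 69.03, 69.96, 73.6 and 73.6 CPM at 44 °C, and Mylk (−0.83) and Myl6 (−0.29) fell with it. Reads of Actb may include processed copies of the gene. The summed level of 11 smooth muscle markers, Acta2 among them, was 409 to 459 CPM at 37 °C and 325 to 416 CPM at 44 °C, and 5 of the 11 had at most 10 reads in each library. Of the 6 with enough reads to be tested 3 were called lower, 2 of them held, and their mean level was between −0.61 and −0.12 in the 44 °C libraries and between −0.11 and 0.10 in the 37 °C libraries, without overlap.

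**Figure D4:**
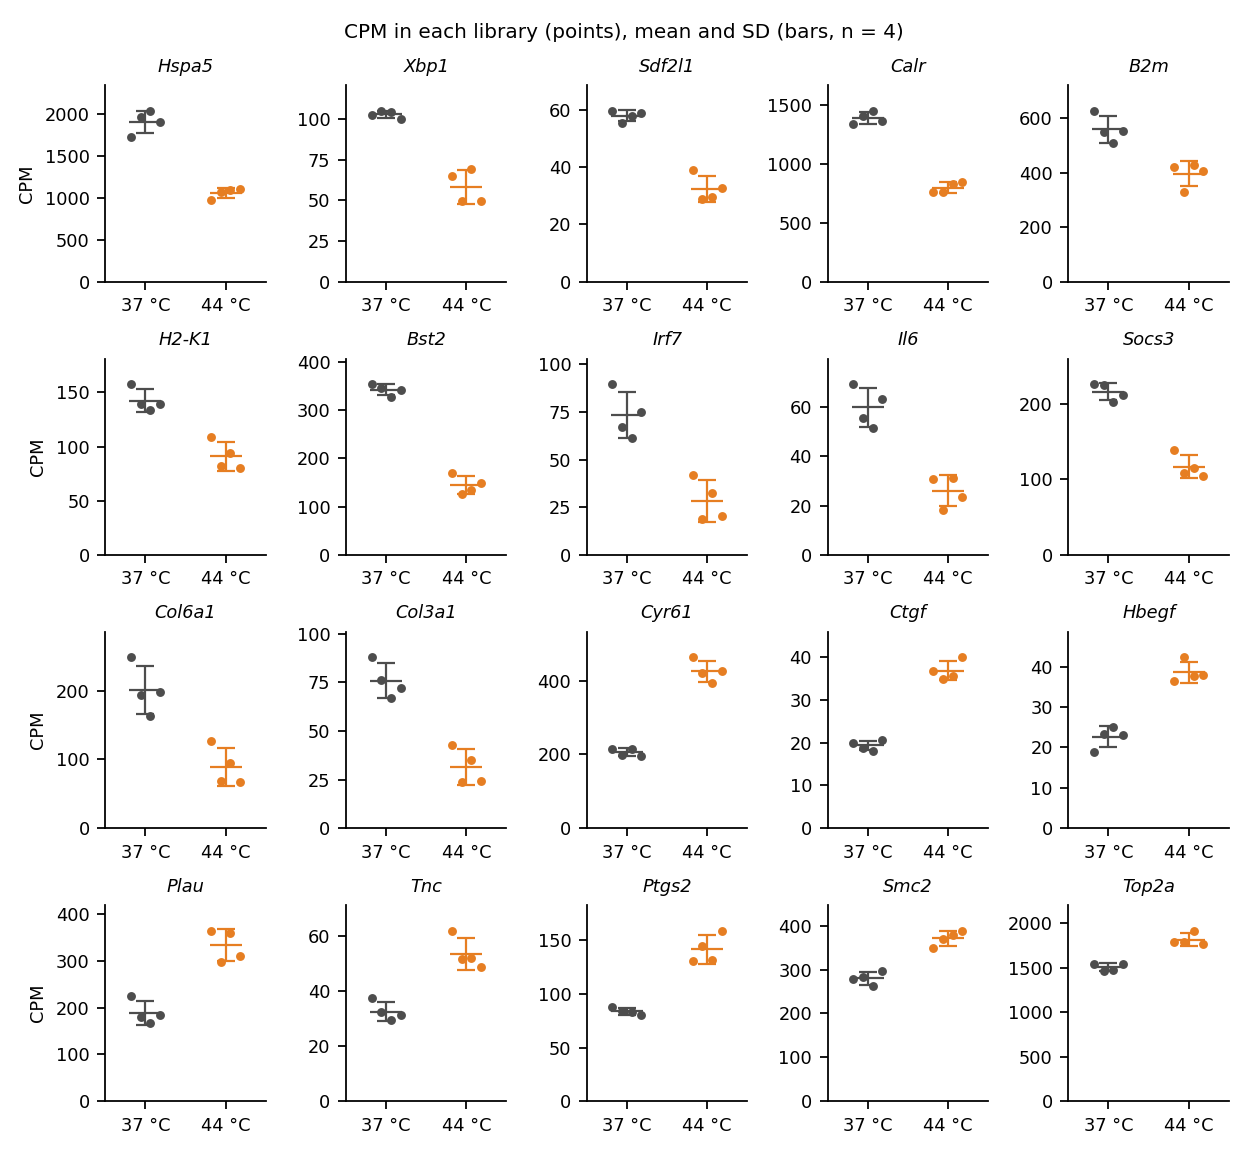
Each panel gives the CPM of a gene in the 4 libraries of each temperature (points), with mean and SD as bars and the axis starting at 0. The 20 genes were picked from held calls. In all of them the groups do not overlap, as in 2561 of all 14424 genes tested (17.8%). ER, class I, interferon, interleukin 6 and collagen genes are lower at 44 °C, and the growth regulator, protease, Ptgs2, Smc2 and Top2a genes are higher.

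Of 54 genes of DNA replication, 19 were called higher (10 held) and none lower, with a median of 0.18. Without 37 °C replicate 1 the count was 11. The mean level was between 0.15 and 0.19 in the 44 °C libraries and between −0.07 and 0.07 in the 37 °C libraries. Prim1, the gene of the catalytic subunit of primase, had 74.9, 83.7, 88.4 and 75.03 CPM at 37 °C and 103, 130.1, 114 and 124 CPM at 44 °C (log2 fold change 0.55 ± 0.098 (SE), adjusted p = 0.00271), without overlap. Prim2 (0.29) encodes the other primase subunit, Pole (0.26) a polymerase, Rpa1 (0.30) the single-strand binding protein and Rrm1 (0.23) ribonucleotide reductase. Ccne1, the cyclin E gene (0.52), Clspn, claspin (0.30), Chaf1b (0.30) and Dnmt1 (0.20) rose as well, while the helicase genes Mcm2 to Mcm7 were not called (0.21 for Mcm2 and 0.01 for Mcm7).

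Mitotic genes went both ways. Of 47 tested, 6 held as higher and 4 as lower, with a median of 0.05. Among the increases Top2a, the topoisomerase II alpha gene, had 1547, 1469, 1478 and 1544 CPM at 37 °C and 1793, 1786, 1919 and 1773 CPM at 44 °C, and Smc2 had 279, 283, 262 and 296 CPM at 37 °C and 349, 369.8, 378 and 389 CPM at 44 °C. Cdk1 (0.29), Bub3 (0.30), Spc25 (0.26) and Smc4 (0.24) were the other increases. Cdc20, the activator gene of the anaphase-promoting complex, had 318, 372, 387 and 362 CPM at 37 °C and 254, 307, 263 and 299.9 CPM at 44 °C, and Ccnb2 (−0.37), Bub1b (−0.21) and Cenpa (−0.20) fell with it. Groups did not overlap in Top2a, Smc2 or Cdc20. Of 13 condensin, cohesin-type SMC and related genes put together after the values were seen, 8 were called higher (7 held), among them Smc3 (0.23), Smc5 (0.26), Smc6 (0.41), Ncapg2 (0.35) and Ncapd3 (0.42), and none lower. This count too is in part fixed by the choice of genes, and 6.58% of all genes tested were called higher.

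Targets of p53 and histone genes did not share a direction. Of 29 p53 and DNA damage genes, 7 were called higher, of which none held, and 4 lower (median 0.05). Of the latter Fas (−0.78), Phlda3 (−0.51) and Plk2 (−0.26) held as lower. Hist1h1c, a linker histone gene with a polyadenylated form, was the 1 histone gene called of 29, at 18.8, 14.4, 14.6 and 14.6 CPM at 37 °C and 6.95, 5.83, 7.96 and 7.83 CPM at 44 °C. Most histone messages lack a poly(A) tail and are poorly seen after the poly-T selection used here.

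Enzymes of nucleotide and folate metabolism held increases. Of 42 genes of the citric acid cycle, folate and nucleotide synthesis, 13 were called higher (6 held) and none lower, with a median of 0.20. Their mean level was between 0.09 and 0.27 in the 44 °C libraries and between −0.12 and 0.10 in the 37 °C libraries, where 44 °C replicate 1 overlapped the controls. Adsl had 185, 226, 246 and 214 CPM at 37 °C and 272, 361, 298 and 339 CPM at 44 °C. Adsl, Pfas (0.56) and Gart (0.45) serve purine synthesis, Mthfd2 the mitochondrial folate cycle, and Fh1 (0.29) and Idh3a (0.32) the citric acid cycle. The number called ran from 6 (37 °C replicate 1 omitted) to 22 (44 °C replicate 1 omitted).

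Few calls held among genes of ribosome assembly and translation. Of 40 genes for the large subunit 15 were called higher and 4 held (median 0.37), and of 41 for the small subunit 8 were called and none held (median 0.34). Without 44 °C replicate 1 the counts were 34 and 32, and without 37 °C replicate 1 they were 4 and 0. The mean level of the large subunit list was 0.06, 0.58, 0.24 and 0.50 in 44 °C replicates 1 to 4 and between −0.22 and 0.17 at 37 °C, so the groups overlapped.

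The held large subunit genes were Mdn1, a giant ATPase gene that releases assembly factors, at 161, 202, 235 and 195 CPM at 37 °C and 231, 386, 279 and 358 CPM at 44 °C, where 44 °C replicate 1 overlapped the controls, and Ddx27 (0.49), Las1l (0.43) and Gnl2 (0.40). Of 43 translation factor genes 13 were called higher, and Eif3l (0.31) and Eif3m (0.34) held. The count was 3 without 37 °C replicate 1. In the tRNA synthetase list of 23 genes, which also holds partner genes such as Aimp1, Rars (0.34), Aimp1 (0.25) and Dars (0.21) held as higher. Pabpc1, the poly(A)-binding protein gene, had 2242, 2357, 2423 and 2271 CPM at 37 °C and 2650.2, 2862, 2786 and 2930.1 CPM at 44 °C, and Hnrnpa1, a splicing regulator gene, 803, 921, 999 and 912 CPM at 37 °C and 1023, 1336, 1195 and 1398 CPM at 44 °C. Both were clear of the controls, and both have processed copies that may share reads.

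Ribosomal protein genes did not share this. Of 82 tested none was called higher and 2 were called lower, with a median of −0.04. Rpl22l1, a paralog of Rpl22, was the held decrease, at 64.8, 51.95, 60.2 and 59.9 CPM at 37 °C and 35.2, 33.3, 31.6 and 34.6 CPM at 44 °C. The 40 RNA polymerase I and III genes and the 35 tRNA and rRNA modification genes had no held call, with medians of 0.23 and 0.19.

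At the nuclear envelope, 4 of 46 transport genes held as higher, all of them scaffold nucleoporins, namely Nup85 (0.38), Nup160 (0.31), Nup155 (0.29) and Nup107 (0.26). Nup155 had 219, 231, 248 and 232 CPM at 37 °C and 264, 297, 277 and 299 CPM at 44 °C, without overlap. Of 49 splicing genes, Hnrnpa1 and Sf3a1 (0.32) held as higher and the kinase gene Srpk2 (−0.40) as lower.

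**Figure D5:**
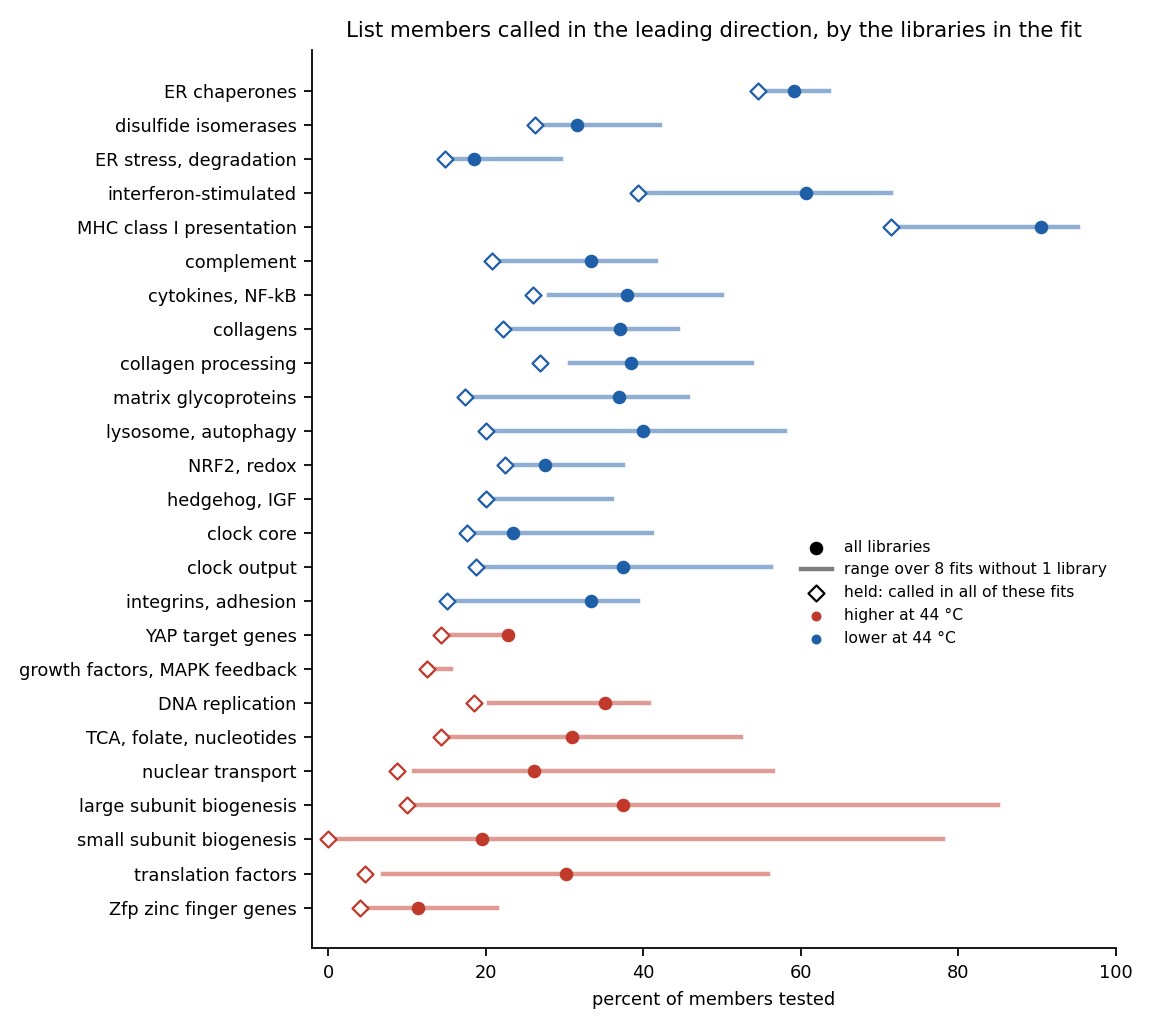
For each list, the percent of tested members called in its leading direction (x axis) is given with all libraries (filled circle), as the range over 8 fits that left out 1 library (bar) and as held calls (open diamond), in blue for lower and red for higher. The ER chaperone share stayed between 12 and 14 members of 22, and that of the small subunit list ran from 0 to 32 of 41.

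Zinc finger genes of the Zfp series, most of which encode DNA-binding repressors, leaned upward. Of 298 tested, 34 were called higher and 3 lower, 12 of the higher calls held and none of the lower, and the median was 0.14. Called members were 12.4% of the list, beside 13.7% of all genes tested, so the list held no surplus of calls. The lean was in sign, with 218 members above 0 and 80 below, beside 7207 and 7217 of all genes tested. The count went from 15 without 44 °C replicate 4 to 64 without 44 °C replicate 1. The largest were Zfp870 (0.81), Zfp472 (0.80), Zfp946 (0.60), Zfp141 (0.55) and Zfp748 (0.51). Zfp472 had 4.19, 4.73, 5.37 and 5.31 CPM at 37 °C and 6.54, 9.29, 7.38 and 10.8 CPM at 44 °C, without overlap. Zfp genes lie in clusters of similar copies, so single values are uncertain where reads map to several of them.

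Across gene structure, increases were rarer among genes with few exons, and among antisense and lincRNA genes calls were rarer in both directions. Of 12335 protein-coding genes 7.42% were called higher and 7.64% lower. Of 1060 protein-coding genes with 2 to 3 exons in their longest transcript model 3.11% were called higher and 8.58% lower, and of 3681 with 11 to 20 exons 9.05% and 7.39%. Of 304 genes annotated as antisense none was called higher and 11 lower (3.62%), and of 328 lincRNA genes 7 (2.13%) and 17 (5.18%). Strand use in counting is not stated, so antisense genes may hold reads of their partners. Expression level and read number differ among these classes, and their part was not tested.

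Circadian genes held 6 decreases and 1 increase. Dbp, a clock-driven transcription factor gene, had 25.02, 15.4, 12.9 and 20.5 CPM at 37 °C and 8.76, 2.98, 5.56 and 2.63 CPM at 44 °C. Its relative Tef had 102, 88.4, 84 and 91.7 CPM at 37 °C and 60.9, 43.4, 56.4 and 44.8 CPM at 44 °C, Per2 had 13.3, 12.3, 11.6 and 11.8 CPM at 37 °C and 7.65, 3.58, 6.32 and 5.09 CPM at 44 °C, and Per3 fell as well (−1.10). The groups did not overlap in these genes. Nr1d2 (−0.26) and Fkbp5 (−0.37), a glucocorticoid-induced gene, also fell, while Arntl, the gene of the activator BMAL1, rose (0.32, from 32.3 ± 1.55 to 40.3 ± 2.5 CPM).

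Of 17 core clock genes 1 held as higher and 3 as lower (median −0.26), and of 16 output genes 3 held as lower (median −0.38). For the core list the mean level was between −0.38 and −0.06 in the 44 °C libraries and between −0.11 and 0.15 in the 37 °C libraries, with overlap. That of the output list was between −0.57 and −0.15 in the 44 °C libraries and between −0.13 and 0.22 in the 37 °C libraries, without overlap. The E-box letters CACGTG were in 7 of 13 output genes with a promoter and in 1000 of 10115 overall (9.89%). Of those 1000 genes 12.7% were called, beside 13.7% of all genes tested, with or without a promoter. Whether the cultures of each temperature were collected at the same clock time is not given in the sources used here, and its part was not tested.

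Growth plate signalling held decreases. In the hedgehog, PTH and IGF list 5 of 25 were called lower, all held, and none higher (median −0.24). Gas1, a hedgehog co-receptor gene, had 68.8, 73.1, 68.5 and 73.2 CPM at 37 °C and 38.1, 32.7, 35.8 and 35.04 CPM at 44 °C (log2 fold change −1.001 ± 0.072 (SE), adjusted p = 1.95e-06). Ptch1, the receptor gene that the pathway induces, fell (−0.26), while Gli1 was not called (−0.57). Igfbp4 had 2268, 2134, 2014 and 2149.9 CPM at 37 °C and 1780.5, 1499.7, 1608 and 1510.1 CPM at 44 °C and Igfbp6 146, 138, 128 and 139 CPM at 37 °C and 94.2, 71.4, 81.9 and 73.9 CPM at 44 °C, both genes of IGF-binding proteins and both without overlap, and Htra1 was given above.

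In the TGF-beta and BMP list of 37 genes 4 held as lower, namely Tgfbi (−0.76), the co-receptor gene Tgfbr3 (−0.49), and the latent TGF-beta binding protein genes Ltbp1 (−0.41) and Ltbp2 (−0.37). Called members were 16.2% of that list, beside 13.7% of all genes tested. Of 33 integrin and adhesion genes 5 held as lower and none as higher (median −0.15). Their mean level was between −0.28 and 0.00 in the 44 °C libraries and between −0.08 and 0.12 in the 37 °C libraries, with overlap. Vcam1 (−0.94), Itgb7 (−0.71), Cdh13 (−0.53), Sdc1 (−0.34) and Itga6 (−0.22) were the 5. Vcam1, a receptor gene for leukocyte integrins, had 26.7, 22.6, 22.8 and 22.7 CPM at 37 °C and 14.7, 9.17, 14.2 and 11.5 CPM at 44 °C.

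Of 31 Wnt genes Fzd1 (−0.50) held as lower, and of 19 Notch genes Ncstn (−0.34) and the protease gene Adam10 (−0.26). Of 34 guidance genes Nrp2 (−0.46), Slit2 (−0.44) and Sema3c (−0.39) held as lower beside Epha2, which rose. Called members were 6.45% of the Wnt, 15.8% of the Notch and 20.6% of the guidance list, beside 13.7% of all genes tested. Of the cartilage list, Prrx1 had 367, 337, 334 and 351 CPM at 37 °C and 289.5, 226, 287 and 247 CPM at 44 °C, and Prrx2 (−0.64) and Prg4 (−0.86) were the other held decreases of 14 tested. For these 14 the mean level was between −0.45 and −0.02 in the 44 °C libraries and between −0.16 and 0.16 in the 37 °C libraries, with overlap. Sox9 (−0.17), Col2a1 (0.05) and Acan (−0.42) were not called. Of 16 hypertrophy genes Mef2d held as lower (−0.24) and Runx2 was not called (−0.06), with 12.5% of that list called.

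Lipid and energy genes gave small lists of held calls. Cyp51 (0.48) and Idi1 (0.45) of cholesterol synthesis rose, the held calls among 26 genes (median 0.12). Abca1, the cholesterol exporter gene, had 61.4, 52.3, 49.8 and 54.6 CPM at 37 °C and 40.4, 22.3, 37.6 and 23.3 CPM at 44 °C. Cpt1a, which brings fatty acids into mitochondria, fell (−0.55), and Acly (0.23), the lipid droplet gene Plin2 (0.34) and Apoe (0.81) rose.

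Of 34 glycolysis and hypoxia genes Pkm, the pyruvate kinase gene, held as lower, at 3928, 3696, 3669.7 and 3689 CPM at 37 °C and 3479, 3000.5, 3183 and 2922 CPM at 44 °C. Of 74 nuclear genes of oxidative phosphorylation Ndufa9 (0.28) held as higher and Atp5e (−0.29) as lower. Of 27 mitochondrially encoded genes none held. Of 98 genes for mitochondrial translation and import Mrps10 held as higher (0.29). Of 25 calcium handling genes Stim1, the ER calcium sensor gene (0.35), held as higher and the calcium pump gene Atp2b1 (−0.27) as lower. Called members were 8.82% of the glycolysis, 6.76% of the oxidative phosphorylation and 18.5% of the mitochondrially encoded list. They were 12.2% of the mitochondrial translation and 12.0% of the calcium list, beside 13.7% of all genes tested.

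The smooth muscle and blood cell markers are given above. The summed level of 13 endothelial markers was 104 to 129 CPM at 37 °C and 80.9 to 115 CPM at 44 °C, with overlap. Of the 7 tested, 4 had a log2 fold change above 0 and 3 below. Calls were 2 higher (1 held) and 1 lower (not held). Pecam1 rose from 0.835 ± 0.208 to 1.85 ± 0.323 CPM. Flt1, with the most reads, had 1972, 1455, 1328 and 1505 reads at 37 °C and 1370, 954, 1185 and 1012 reads at 44 °C. Of 9 osteoblast and tendon markers Mkx fell, with a sum of 61.2 to 68.8 CPM at 37 °C and 56.7 to 63.6 CPM at 44 °C. Pdgfrb, a perivascular marker gene, had 19.01, 17.5, 17.4 and 19.6 CPM at 37 °C and 14.4, 9.9, 9.89 and 8.63 CPM at 44 °C, without overlap. Skeletal muscle markers summed to at most 1.27 CPM in any library, and adipocyte, neural and epithelial lists had no held call. The part of other cells in the results above was not tested.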

How the data were processed

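Gene expression was measured by RNA sequencing of poly(A) RNA in 12 libraries of ATDC5 cells, per the labels' protocols. The authors deposited raw counts per gene, 1 column per library. The submitters' processing notes name featureCounts 1.5.0-p3, StringTie 1.3.3b, HISAT2 2.0.5 and fastp and the build mm10, without role or order. Strand use and the treatment of reads that map to several places are not given in the sources used here, so near-identical, overlapping and antisense genes are uncertain.

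The analysis used edgeR 4.0.16 under R 4.3.3. The filter filterByExpr (minimum count 10, minimum total 15) left 14424 of 54532 genes. TMM-scaled libraries of all 3 temperatures entered 1 quasi-likelihood model with 1 mean per temperature, so that they shared the estimate of spread (biological coefficient of variation 0.102), and 44 °C minus 37 °C was tested by a two-sided F-test with Benjamini-Hochberg adjustment over all genes tested. A standard error is the size of the log2 fold change over the root of its F. CPM are on TMM-scaled totals, except for sums of markers, which use library totals. The script was tested on simulated counts with known changes. Total counts per library are given with the results, and 3 counts, the limit that a count of 0 allows, cover counting error only.

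Genes were named by a rule: outside the heat shock list, the 12 held calls furthest up and the 12 furthest down by log2 fold change (with a mean of 5 CPM or more in either group and groups that do not overlap), the 5 in each direction with the largest CPM difference, up to 3 per list with the smallest p, and 7 reference genes. The members, the 68 gene lists and the rule were chosen with earlier results of these data known. Counts of list members are descriptions, with no test over a list. Zfp81, which the rule also took, rose by 0.43 on the log2 scale. A few genes that the rule or the lists hold are not reported here. Promoters came from RefSeq on GRCm38.p6, matched by Ensembl gene identifier or, where that gave none, by gene symbol. Only unique matches were used. Alternatives were DESeq2 1.42.0, no TMM, no filter, 8 libraries, the replicate number as a block, the within-group direction as a covariate, a stricter threshold, and leaving out each library.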

Additional observations from a re-analysis of the deposited data

Results flagged for a closer look

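Among the genes and lists whose values are given per library, and the 7 class shares, each group of 4 libraries was checked for a library whose gap to the nearest of the others was too large a part of the range of the group (above Dixon's critical value at 95%). Chance alone sets apart about 1 in 20 groups, and 8 of 182 were set apart here. At 37 °C, replicate 1 was low in Acta2 (109 CPM, the others 124 to 127) and high in Hist1h1c (18.8 CPM, the others 14.4 to 14.6), Pkm (3928 CPM, the others 3670 to 3696) and Vcam1 (26.7 CPM, the others 22.6 to 22.8). At 44 °C, replicate 2 was low in Actb (2176 CPM, the others 2236 to 2245) and high in Dusp5 (59.6 CPM, the others 50.8 to 52.0). Replicate 4 was high in Ankrd1 (16.01 CPM, the others 13.1 to 13.2), and replicate 3 in Top2a (1919 CPM, the others 1773 to 1793). Each of the 8 genes is a held call, which by definition is also called without that library, so this is no further check.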

How the results depend on the processing

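All 808 held calls had the same sign wherever they were tested in the 6 other full fits. DESeq2 called 802 of them and left 6 without an adjusted p, 805 were called with no filter on low counts and 807 with the 8 libraries alone, where 1 was not tested. All 808 were called without TMM, with the replicate block and with the within-group direction as a covariate. The count of all called genes was less stable than that. It was 1975 (949 higher, 1026 lower) from all libraries and 630 (236 higher, 394 lower) at an adjusted p under 0.01. It was 5034 (2581 higher, 2453 lower) with the within-group direction as a covariate, which by its construction leaves fold changes nearly as they are and narrows the spread. Leaving out 1 library gave 979 to 3355 called genes, 405 to 1717 higher and 564 to 1638 lower. It was 2674 with DESeq2, 2008 (1096 higher, 912 lower) without TMM, 2301 with no filter and 1658 with the 8 libraries alone. The count of called members moved by more than 1.5 times in 34, 28, 5 and 31 of 67 lists on omitting 37 °C replicates 1 to 4 and in 27, 31, 11 and 32 on omitting those at 44 °C.

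The labels do not say whether the replicate numbers pair the samples. Correlations of deviations between same-numbered libraries lay between −0.151 and 0.366, and those of differently numbered libraries between −0.301 and 0.239. So few values cannot decide whether the samples are paired. With the replicate number as a block, 2557 genes were called.

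On leaving out 1 library, the median of 10 of 67 lists changed sign at least once, among them those of ribosomal proteins (up to 0.014), ER translocation (up to 0.0139), growth factors (up to 0.0537) and immediate early genes (down to −0.0105). The median of the histone list (−0.07) ran from −0.0561 to 0.0964, that of the p53 list (0.05) from −0.0159 to 0.106 and that of the adipocyte markers (0.14) from −0.0167 to 0.421. The signs turned in the histone list on omitting 37 °C replicates 1 (0.0908) and 4 (0.0964) and 44 °C replicates 1 (0.0261), 2 (0.0641), 3 (0.00287) and 4 (0.0545), in the p53 list on omitting 37 °C replicate 3, and in the adipocyte markers on omitting replicate 4 of 37 °C (−0.0126) or 44 °C (−0.0167). The cause was not tested. For genes with few reads, depth limits what could be detected.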

Other observations

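Several of the largest held changes were in genes of no list. Tmem171, which encodes a membrane protein, had 13.1, 12.4, 13.2 and 13.7 CPM at 37 °C and 22.6, 25.7, 24.2 and 22.5 CPM at 44 °C, and Sdcbp2, which encodes the syndecan-binding protein syntenin 2, had 9.78, 8.44, 8.97 and 10.1 CPM at 37 °C and 15.9, 15.7, 16.9 and 18.7 CPM at 44 °C. Every heated library lay above every control in both. The polarity gene Pard6b (0.80), Ccdc88c (0.80), Ccdc114 (0.80), the dioxygenase-like gene Hpdl (0.93) and the long noncoding RNA gene Mirt1 (0.87) rose too. On the lower side S100a4, which encodes a calcium-binding protein of motile mesenchymal cells, had 9.89, 9.35, 8.85 and 10.1 CPM at 37 °C and 3.27, 2.43, 5.09 and 4.17 CPM at 44 °C, and the ribonuclease gene Rnase4 had a log2 fold change of −1.25. Vim, the vimentin gene, had 4276, 4070.1, 3949 and 4177 CPM at 37 °C and 3526, 3145, 3377 and 3179.9 CPM at 44 °C, without overlap.

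Further held calls came from lists with 1 or 2 of them. Neat1, the RNA that scaffolds nuclear paraspeckles, had 312, 248, 248 and 271 CPM at 37 °C and 219, 199, 191 and 199 CPM at 44 °C, with all heated libraries lower. Dnm3os, a transcript antisense to Dnm3, fell (−1.13), although without stated strand use its reads cannot be told apart from those of Dnm3. The deacetylase gene Hdac2 (0.31) and the tubulin gene Tubg1 (0.26) rose, and the cell death gene Bcl2l11 (−0.28) and the tubulin gene Tubb2a (−0.29) fell.

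The share of counts taken by 7 gene classes was compared between 4 and 4 libraries with a two-sided exact permutation test, whose smallest p is 0.0286. The lincRNA genes took 0.344% ± 0.0241 (SD, n = 4) at 37 °C and 0.310% ± 0.00745 at 44 °C, with an exact permutation p of 0.0286 and an adjusted p of 0.0667, and were lower in 4 of 4 heated libraries. Antisense genes (0.0953% and 0.0894%) and genes of the annotation class TEC (0.0747% and 0.0669%) gave the same exact permutation p of 0.0286 and adjusted p of 0.0667. Mitochondrially encoded genes took 2.01% ± 0.164 and 1.90% ± 0.0927 (exact permutation p = 0.257, adjusted p = 0.300). No class passed after adjustment, for which at least 5 of the 7 would have had to reach the smallest p.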
